A study of Mus musculus with 6 samples.

Results

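Leukocytes leave the blood mainly through postcapillary venules, where endothelial selectins slow them down and ICAM and VCAM proteins then hold them by their integrins. Venular and fenestrated endothelium carries further surface and storage proteins, among them the chemokine-binding receptor ACKR1, the diaphragm protein PLVAP and von Willebrand factor. In skin, selectins and VCAM1 are known to be induced by inflammatory cytokines, while ICAM2, PLVAP, endomucin and CD93 are known as constitutive endothelial surface proteins. The expression of 10 such genes was examined in mouse ear skin: Selp, Sele, Icam1, Icam2, Vcam1, Vwf, Ackr1, Plvap, Emcn and Cd93. They were taken by gene symbol from a count table of 18482 genes, and all 10 were among the 14856 genes with enough counts to be tested.

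The libraries held polyadenylated RNA of whole ear skin at postnatal day 21 from tamoxifen-treated mice. The lecko group (Vegfr2lecko in the titles, 3 libraries) carried a lymphatic-specific deletion of Kdr, the gene of VEGFR2, and the control group (3 libraries) consisted of littermates that received tamoxifen too. Across the study tamoxifen was injected in the first or the second postnatal week, and the sources used here do not state which schedule these mice had, nor their Cre driver, strain or sex. The labels do not tie libraries to animals or litters, so a p-value here reflects the spread among these libraries, which may be technical. Blood and lymphatic endothelium are a small part of this tissue, and in bulk RNA fewer cells of a type and less RNA per cell cannot be told apart.

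Total estimated counts were 17550952 to 17825135 in the lecko libraries and 17242921 to 17678754 in the controls. Kdr gave 173, 198 and 180 counts in lecko libraries 1 to 3, against 566, 545 and 674 in controls 1 to 3, a log2 fold change of -1.72 (SE 0.10; adjusted p = 0.00026, edgeR quasi-likelihood). Which exons were deleted is not stated, and Kdr is also known as a blood endothelial gene. Keratinocyte markers, the defining genes of epidermis, summed to 23738 to 25024 CPM (counts scaled to the effective library size) in lecko skin and 23470 to 26770 CPM in control skin, with 0 of 8 markers absent. Y-linked genes stood apart within the controls: Ddx3y, Eif2s3y, Uty and Kdm5d together gave 4, 21 and 9 counts in the lecko libraries, against 18 in control 1 and 4272 and 4564 in controls 2 and 3. Sex as read from these genes therefore differs between the groups, and control 1 is the control that matches the lecko libraries in these genes. Fits with a Y-linked covariate are given where they move a value. In such a fit the covariate takes up controls 2 and 3, so its fold change compares the lecko libraries with control 1 alone. A value with the Y-linked covariate thus rests on 1 control library.

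Cd93, Plvap and Emcn had the lowest fold changes of the 10 genes, and the adhesion genes went either way. Cd93 and Plvap were lower in every lecko library than in every control, and Emcn was lower on average with overlapping libraries. Vcam1, Selp and Icam1 had higher averages in lecko skin, Sele had a lower one, and all 4 overlapped between the groups. No member passed the test over all genes. By edgeR's quasi-likelihood test 0 of 10 had a Benjamini-Hochberg adjusted p under 0.05, against 0.0202% of all genes tested (3 genes). By DESeq2 the count was 0 too, against 32 of 18174 genes, and by limma-voom 0, against 3 of 14856. At an unadjusted p under 0.05 there were 3 members, against 8.56% of all genes in either direction. All 3 were lower, against 3.68% of all genes that were lower at that level, and 0 were higher, against 4.89%. The groups did not overlap for 2 members, both lower, against 7.23% of all genes, and 0 were higher without overlap, against 7.37%. The median log2 fold change of the members was -0.15, with 7 of 10 negative, beside a median of 0.01 over all genes, of which 48.1% were negative.

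**Figure D1:**
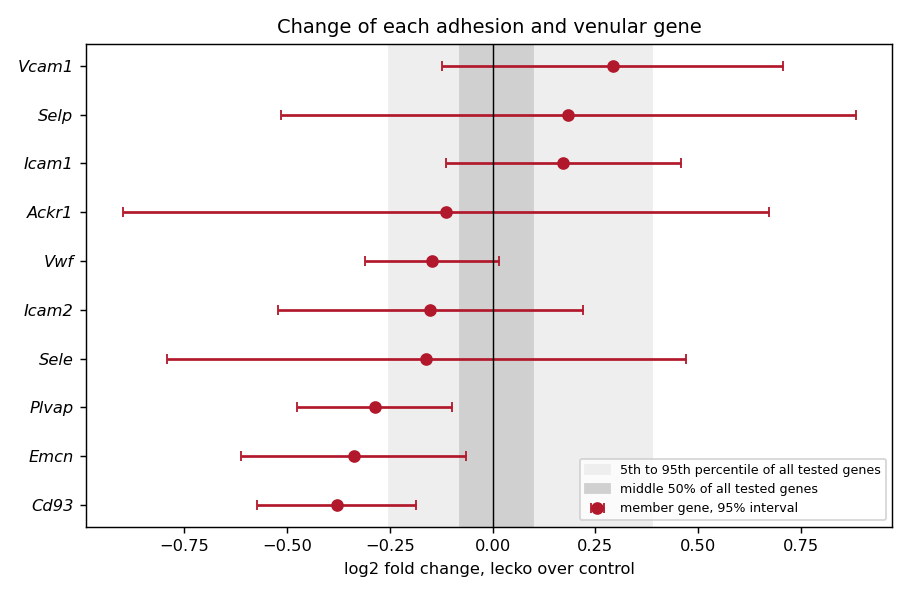
Log2 fold change (lecko over control) of each of the 10 genes with its 95% interval from the edgeR fit; the dark and light bands hold the middle 50% of all tested genes and their 5th to 95th percentile. The intervals of Cd93, Emcn and Plvap lie below 0, and those of the other 7 genes include 0.

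The lowest fold change belonged to Cd93, a C-type lectin receptor of endothelium that also occurs on monocytes. Cd93 had 31.5, 35.4 and 30.4 CPM in lecko libraries 1 to 3, against 41.2, 39.5 and 46.0 CPM in controls 1 to 3. The highest lecko library lay below the lowest control. The mean was 32.5 ± 2.61 CPM in lecko skin and 42.2 ± 3.35 CPM in control skin (SD, n = 3 each). This corresponds to a fold of 0.769 (95% interval 0.672 to 0.879), or -0.38 (SE 0.09) on the log2 scale. Its unadjusted p was 0.00162, at rank 62 of 14856, and its adjusted p was 0.379 by edgeR's quasi-likelihood test. Cd93 lies on the minus strand of chromosome 2, chr2:148436651-148443535 in GRCm38.p6, and its transcript has 2 exons.

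Plvap encodes the protein that forms the diaphragms of fenestrae, caveolae and transendothelial channels. Plvap had 48.6, 51.6 and 47.7 CPM in lecko libraries 1 to 3, against 58.4, 54.6 and 67.5 CPM in controls 1 to 3. All lecko libraries were again below all controls, and the lecko libraries were close together, at 49.3 ± 2.00 CPM, where controls were at 60.2 ± 6.61 CPM (SD, n = 3 each). The fold was 0.819 (95% interval 0.719 to 0.934), with an adjusted p of 0.486 by edgeR's quasi-likelihood test. Emcn encodes endomucin, a sialomucin of capillary and venous endothelium that hinders leukocyte contact. Emcn had 16.8, 12.7 and 14.2 CPM in lecko libraries 1 to 3, against 18.8, 19.7 and 16.7 CPM in controls 1 to 3. Lecko 1 lay just above control 3, so the groups overlapped by that pair. The fold was 0.791 (95% interval 0.654 to 0.957), with an adjusted p of 0.526 by edgeR's quasi-likelihood test.

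Plvap and Cd93 varied across the 6 libraries almost in parallel. After each gene was centred on its own mean log2 CPM, the 2 profiles differed by a root mean square of 0.06, the smallest distance of any pair of the 10 genes, while Vcam1 and Ackr1 were farthest apart at 0.62. With Y-linked expression as a covariate the log2 fold changes were -0.34 for Cd93, -0.24 for Plvap and -0.37 for Emcn. Control 1, the control on which that covariate fit rests, was above all lecko libraries in these 3 genes, at 41.2, 58.4 and 18.8 CPM. Adjusted p-values with the covariate were 0.901 for each by edgeR's quasi-likelihood test.

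**Figure D2:**
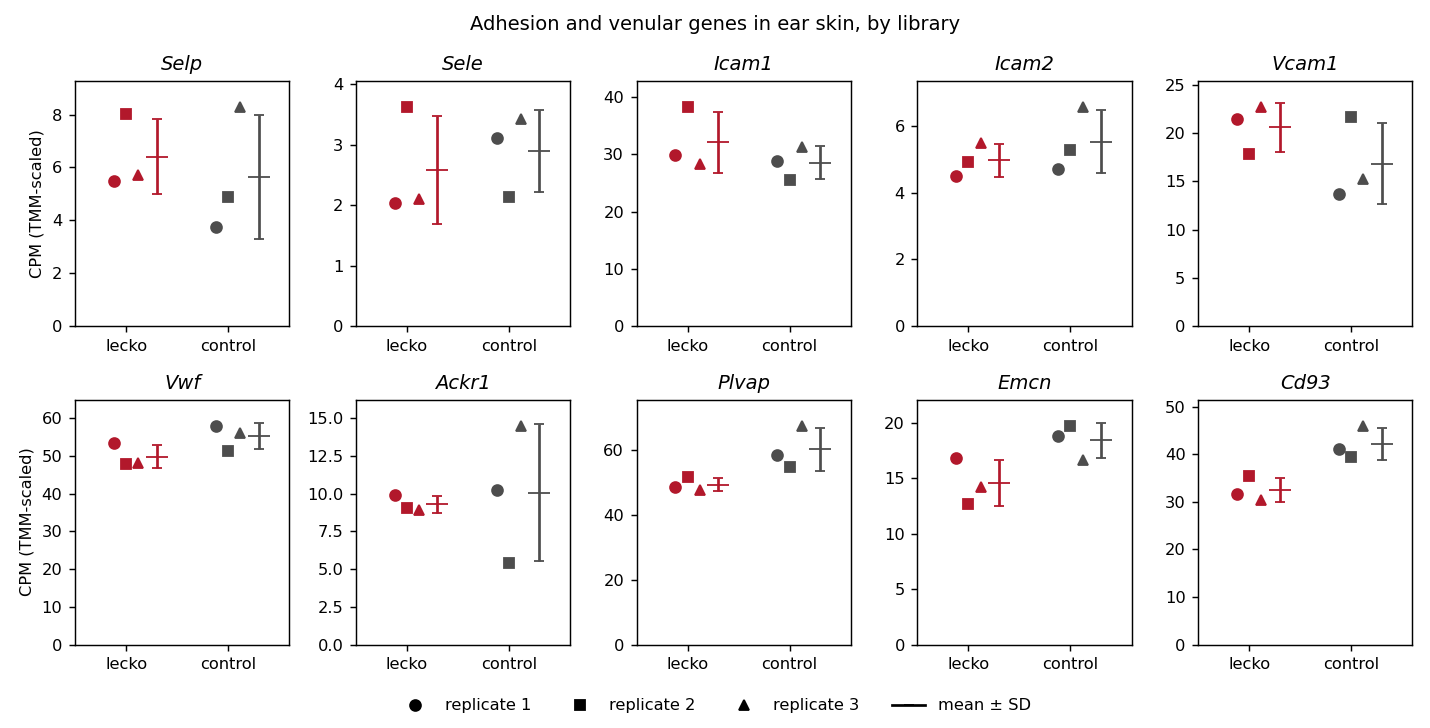
CPM of each gene in the 3 lecko and 3 control libraries, with marker shapes for the replicate number and bars for mean ± SD; every axis starts at 0. Cd93 and Plvap have all lecko points below all control points, while Selp, Sele and Ackr1 spread widely within a group.

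Selectins catch passing leukocytes and let them roll. P-selectin (Selp) is stored in endothelial Weibel-Palade bodies and in platelets, and E-selectin (Sele) is made by endothelium on activation. Selp had 5.47, 8.03 and 5.73 CPM in lecko libraries 1 to 3, against 3.75, 4.89 and 8.28 CPM in controls 1 to 3. Control 3 and lecko 2 were high, the other 4 libraries were lower, and the groups overlapped. Sele had 2.03, 3.62 and 2.10 CPM in lecko libraries 1 to 3, against 3.11, 2.13 and 3.43 CPM in controls 1 to 3, so lecko 2 and control 3 were again the highest of their groups. These values rest on 36 to 64 counts per library for Sele and 65 to 145 for Selp.

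Neither selectin differed beyond its spread. The log2 fold change was 0.18 (SE 0.30) for Selp and -0.16 (SE 0.28) for Sele, and the adjusted p was 0.881 for Selp and 0.890 for Sele by edgeR's quasi-likelihood test. The 95% intervals of the fold, 0.700 to 1.85 for Selp and 0.577 to 1.39 for Sele, include a change by 1.5-fold downward for Sele and upward for Selp. The Selp value turned on single libraries: leaving out control 3 gave 0.57, control 1 -0.045 and lecko 2 -0.010. Sele was at -0.48 without lecko 2, at -0.02 without lecko 1 or control 3, and at -0.27 with the Y-linked covariate. Control 1 had less Selp than any lecko library, and with the Y-linked covariate Selp was at 0.77, with an adjusted p of 0.901 by edgeR's quasi-likelihood test. Selp and Sele neighbour each other on chromosome 1, at chr1:164115264-164150026 and chr1:164039614-164058487 (GRCm38.p6, plus strand). Parts of Selp overlap antisense transcripts, which make up 14.4% of its 50-base stretches. Icam1 shares 18.6% of its stretches with an antisense transcript in the same way. The sources used here do not state whether counting used strand, so reads of either strand may be in these values.

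ICAM1 and ICAM2 bind the leukocyte integrin LFA-1, and VCAM1 binds the integrin VLA-4 (alpha 4 beta 1), so that rolling cells stop. Icam1, which macrophages and keratinocytes also express, had 29.9, 38.2 and 28.3 CPM in lecko libraries 1 to 3, against 28.8, 25.5 and 31.2 CPM in controls 1 to 3. Lecko 2 was high, and the other 5 libraries lay between 25.5 and 31.2 CPM. The log2 fold change was 0.17 (SE 0.13) with all libraries, 0.03 without lecko 2 and 0.09 without control 2. Icam2 had 4.51, 4.92 and 5.50 CPM in lecko libraries 1 to 3, against 4.73, 5.29 and 6.57 CPM in controls 1 to 3. The groups overlapped for Icam2 too, with a log2 fold change of -0.15 (SE 0.16), which was -0.0092 without control 3 and 0.075 with the Y-linked covariate.

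Vcam1 had the highest fold change of the members. Vcam1 had 21.4, 17.8 and 22.7 CPM in lecko libraries 1 to 3, against 13.7, 21.7 and 15.2 CPM in controls 1 to 3. Control 2 lay within the lecko range and the other controls below it. The mean was 20.7 ± 2.54 CPM in lecko skin and 16.9 ± 4.24 CPM in control skin (SD, n = 3 each), a fold of 1.22 (95% interval 0.918 to 1.63). Its log2 fold change of 0.29 was 0.16 without control 1 and 0.51 without control 2, between which the other left-out libraries lay, and 0.60 with the Y-linked covariate. Adjusted p-values by edgeR's quasi-likelihood test were 0.725 for Icam1, 0.818 for Icam2 and 0.679 for Vcam1 with all libraries. Without 1 library the adjusted p of Vcam1 lay between 0.176 (without control 2) and 0.946 (without control 1) by the same edgeR test. Stromal cells also express Vcam1. The 9 fibroblast genes (0 absent) summed to 26424 to 29010 CPM in lecko skin and 21992 to 35441 CPM in control skin. Control 2 was the highest of the 6 libraries in that sum, which is mostly RNA of Col1a1, Col1a2 and Col3a1. The other genes of the list did not all follow that sum. Pi16 also had its highest count in control 2 (1252), while Dpp4 had 21.1 CPM there and 22.8 to 23.2 CPM in lecko skin. Over the 9 genes the median log2 fold change was 0.008, with 6 positive and 3 negative, and it was 0.21 without control 2. The part of fibroblasts in the Vcam1 values was not tested.

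Icam1 and Sele are the textbook cytokine-responsive members of the group, and their promoters are shown because both carry a sequence of the kind bound by NF-kappa-B. RefSeq promoter windows, from 250 bases before to 50 after the annotated start in GRCm38.p6, were matched for 5 of the 10 genes (Sele, Selp, Ackr1, Emcn and Icam1). The pattern GGANNTTCC, on either strand, occurred in 2 of these 5 windows, Icam1 and Sele, and in 4.26% of all 32851 windows. In both cases the match lay upstream of the start, at -153 for Icam1 and -145 for Sele. The stretches of 100 bases around it are chr9:21015737-21015836 for Icam1 and chr1:164048039-164048138 for Sele, both on the plus strand, with the match in capitals. The Sele window belongs to a start site inside the annotated gene span:
Icam1: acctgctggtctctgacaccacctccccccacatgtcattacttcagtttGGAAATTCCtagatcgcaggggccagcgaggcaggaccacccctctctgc
Sele: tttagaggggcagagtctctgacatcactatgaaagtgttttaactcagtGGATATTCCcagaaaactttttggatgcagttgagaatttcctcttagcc
The other pattern searched, TATAAA, occurred in 2 of the 5 windows and in 13.6% of all windows. A match is a description of the sequence only, and enrichment was not tested.

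Von Willebrand factor (Vwf) fills the Weibel-Palade bodies that also hold P-selectin, and it tethers platelets. Vwf had 53.3, 47.9 and 48.1 CPM in lecko libraries 1 to 3, against 57.9, 51.3 and 56.1 CPM in controls 1 to 3. Lecko 1 exceeded control 2, and otherwise the lecko libraries were lower. Vwf had the narrowest range of the members, 1.21-fold from the lowest to the highest library, with a fold of 0.903 (95% interval 0.807 to 1.01) and an adjusted p of 0.608 by edgeR's quasi-likelihood test. The log2 fold change of Vwf was -0.15, and -0.22 with the Y-linked covariate. Other genes of the storage organelle or of VWF handling had a median log2 fold change of 0.02 over 9 tested genes, with 0 at an unadjusted p under 0.05 against 8.56% of all genes. That median was -0.060 without control 1 and -0.061 without control 3. The smallest p in that list belonged to Mmrn1 (log2 fold change -0.11) and Edn1 (-0.19).

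ACKR1 binds inflammatory chemokines without signalling and marks venules, and red cells carry it as well. Ackr1 had 9.93, 9.05 and 8.91 CPM in lecko libraries 1 to 3, against 10.3, 5.40 and 14.5 CPM in controls 1 to 3. The lecko libraries all lay between control 2 and control 1, and the controls spread 2.68-fold. The coefficient of variation was 5.97% in lecko skin and 45.3% in control skin (n = 3 each). The log2 fold change of -0.11 (SE 0.33) became -0.42 when control 2 was left out and 0.25 when control 3 was, and the adjusted p with all libraries was 0.937 by edgeR's quasi-likelihood test. Ackr1 was the member whose deposited values were not whole: it overlaps Cadm3, a neural adhesion gene on the same strand, which holds 18.0% of its 50-base stretches. Cadm3 had 1265 to 1391 counts in lecko skin and 1159 to 1360 counts in control skin, and Ackr1 had 157 to 176 counts in lecko skin and 94.3 to 254.1 counts in control skin, so the Ackr1 values are uncertain. Erythroid genes, 11 with 0 absent, summed to 1448, 2506 and 1902 CPM in lecko libraries 1 to 3, against 912, 1247 and 1348 CPM in controls 1 to 3. Their part in the Ackr1 values was not tested.

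**Figure D3:**
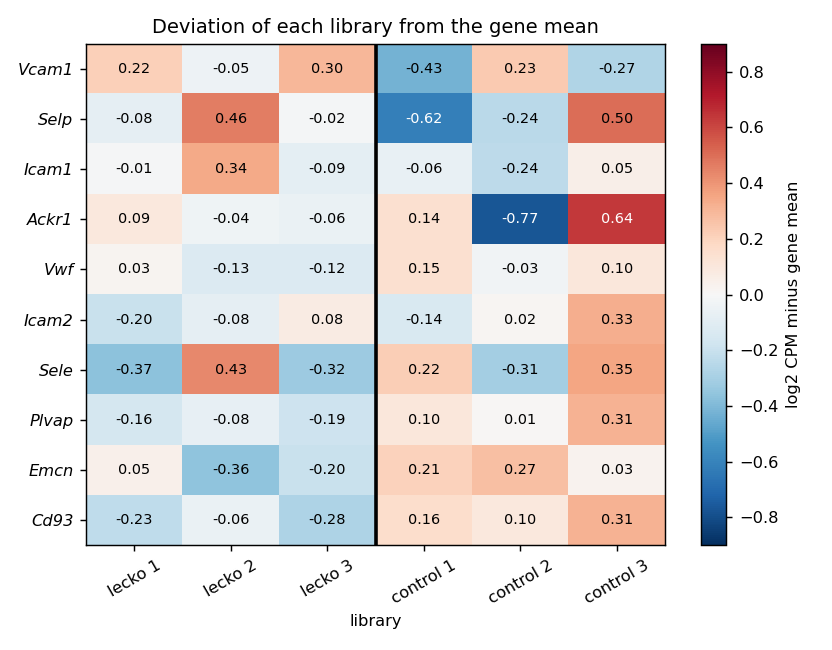
Log2 CPM of each gene in each library minus the gene's mean over the 6 libraries, lecko libraries left of the line and controls right, genes ordered by log2 fold change from Vcam1 to Cd93. Control 3 is the highest library for 5 of the 10 genes, and the widest swings are those of Ackr1 between control 2 and control 3 and of Selp between control 1 and control 3.

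The members varied more between replicates than genes of like abundance. For all 10, the SD of log2 CPM within groups was larger than the median of tested genes whose mean log2 CPM was within 1. The excess was small for Vwf (0.09 against 0.09) and Icam2 (0.19 against 0.19) and large for Ackr1 (0.51 against 0.15) and Selp (0.45 against 0.18). Of comparable genes, 97.6% had a smaller SD than Ackr1, 95.7% than Selp and 93.3% than Vcam1. For 5 members, Icam1, Icam2, Vwf, Plvap and Cd93, the 95% interval of the fold excluded a change by 1.5-fold in either direction, and for the other 5 it did not.

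Per kilobase of transcript, Plvap was the most abundant member and the selectins were the least. Plvap was at 24.8 ± 1.01 CPM per kilobase in lecko skin and 30.3 ± 3.33 in control skin (SD, n = 3 each), and Icam1 at 12.7 ± 2.10 in lecko skin and 11.2 ± 1.13 in control skin. Ackr1 followed at 8.06 ± 0.481 CPM per kilobase in lecko skin and 8.72 ± 3.95 in control skin, with a control range of 4.69 to 12.6 that reached into that of Icam1. In lecko skin Vcam1 (5.95 ± 0.732), Vwf (5.63 ± 0.348) and Emcn (5.62 ± 0.812) came next with overlapping ranges, followed by Cd93 at 4.86 ± 0.391 CPM per kilobase. In control skin the same genes stood in the order Emcn (7.11 ± 0.604), Cd93 (6.32 ± 0.502), Vwf (6.24 ± 0.390) and Vcam1 (4.86 ± 1.22), again with overlapping ranges between neighbours. Icam2 was at 3.88 ± 0.388 CPM per kilobase in lecko skin and 4.31 ± 0.735 in control skin, Selp at 1.86 ± 0.409 in lecko skin and 1.64 ± 0.686 in control skin, and Sele at 0.887 ± 0.308 in lecko skin and 0.992 ± 0.233 in control skin.

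Each member was also set against the mean log2 CPM of 27 other endothelial genes, such as Cdh5, Pecam1 and Tie1. Of these, 0 passed over all genes, 11 were lower at an unadjusted p under 0.05 (3.68% of all genes), 23 were negative and 4 positive, and the median log2 fold change was -0.19. That mean was 4.72, 4.66 and 4.59 in lecko libraries 1 to 3, against 4.83, 4.81 and 4.87 in controls 1 to 3. Relative to it, 7 members were higher in lecko skin and 3 lower, against 3 higher and 7 lower in plain CPM. The split depended on the comparison genes: against 16 lymphatic genes 4 were higher and 6 lower. Cd93 remained lower in each lecko library, at 0.264, 0.491 and 0.341 log2 units above the reference in lecko libraries 1 to 3, against 0.533, 0.495 and 0.651 in controls 1 to 3, a difference of -0.19. Plvap overlapped between the groups on this scale, with a difference of -0.10 (-0.030 without control 3), and so did Emcn, with -0.16 (-0.062 without lecko 2 and -0.093 without control 2).

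Icam1, which overlapped between the groups in plain CPM, stood higher relative to the endothelial reference in every lecko library than in every control. The reference mean was itself lower in every lecko library, which raises any gene on this scale in lecko skin. The share of all genes that separate on this scale was not computed. Its values were 0.18, 0.60 and 0.24 in lecko libraries 1 to 3, against 0.02, -0.13 and 0.10 in controls 1 to 3, a difference of 0.35, which was 0.22 without lecko 2. For Cd93 and Icam1 the two-sided exact permutation p was 0.1, the smallest that 3 libraries against 3 allow, and 0.5 when adjusted over the 10 genes. The differences were 0.50 for Vcam1, 0.42 for Selp, 0.18 for Ackr1, 0.04 for Icam2 and for Vwf, and 0.0067 for Sele, and all of these overlapped. Single libraries moved several of them. Ackr1 was at -0.19 without control 2 and 0.48 without control 3, and Selp at 0.18 without control 1, 0.25 without lecko 2 and 0.72 without control 3. Sele ranged between -0.25 (without lecko 2) and 0.18 (without lecko 1), and Icam2 between -0.061 (without lecko 3) and 0.16 (without control 3). Set against the lymphatic genes, the difference was -0.35 for Cd93, -0.31 for Emcn, -0.25 for Plvap, -0.14 for Sele, -0.11 for Icam2 and for Vwf, 0.028 for Ackr1, 0.20 for Icam1, 0.27 for Selp and 0.34 for Vcam1.

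**Figure D4:**
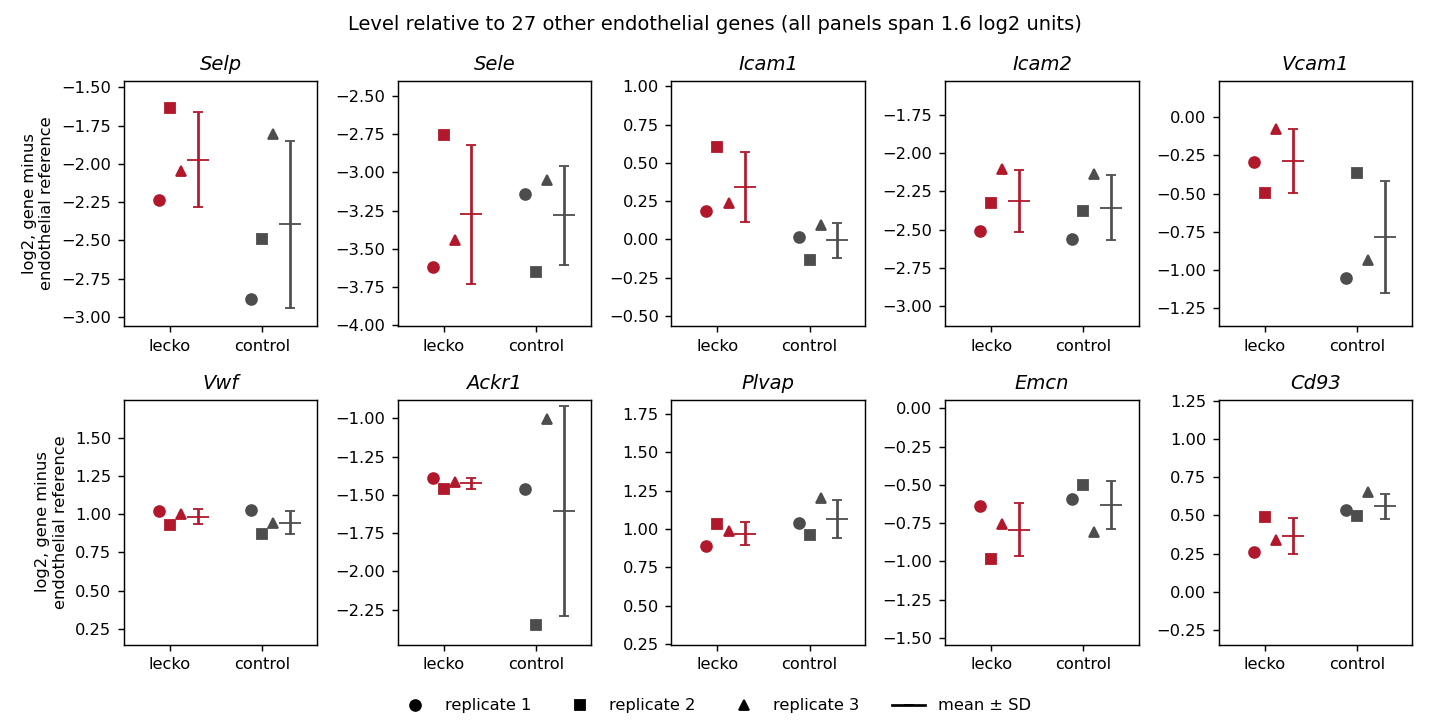
Log2 CPM of each gene minus the mean log2 CPM of 27 other endothelial genes, by library, with mean ± SD; panels have different centres and span the same number of log2 units. Icam1 is higher and Cd93 lower in all lecko libraries, and Vwf is nearly level at 0.98 in lecko skin and 0.94 in control skin.

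On the leukocyte side of the adhesion system most genes had higher averages in lecko skin. Of 16 tested selectin ligands, ligand-building enzymes and integrins, 15 had positive log2 fold changes, with a median of 0.37, and 6 had an unadjusted p under 0.05, all higher, against 4.89% of all genes. None of the 16 passed over all genes, and the median was 0.25 without control 3. Itgal, the alpha chain of LFA-1, had 183, 124 and 127 counts in lecko libraries 1 to 3, against 75, 109 and 69 counts in controls 1 to 3. Every lecko library was above every control, with a log2 fold change of 0.76 and an adjusted p of 0.489 by edgeR's quasi-likelihood test. St3gal4, a sialyltransferase that builds selectin ligands, had a log2 fold change of 0.29 (adjusted p = 0.486 by the same edgeR test). Direct partners of the members, Selplg (the P-selectin ligand), Itga4 (of VLA-4) and Itgb2 (of LFA-1), were named after their values were seen and had log2 fold changes of 0.39, 0.37 and 0.37.

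Leukocyte markers were higher on average in the same libraries. The 15 pan-leukocyte genes summed to 702, 540 and 577 CPM in lecko libraries 1 to 3, against 457, 540 and 382 CPM in controls 1 to 3, with a median log2 fold change of 0.51 (0.32 without lecko 1) and 0 markers absent. The values of lecko 2 and control 2 were level. Monocyte and macrophage genes, 12 in number with 0 absent, summed to 868 to 972 CPM in lecko skin and 622 to 843 CPM in control skin. Leukocytes carry Icam1, and monocytes Cd93, and the part of these cells in the Icam1 and Cd93 values was not tested. Neutrophil genes followed single libraries, at 131, 43.5 and 26.0 CPM in lecko libraries 1 to 3. In controls 1 to 3 they summed to 122, 20.9 and 44.0 CPM. None of the 8 was at 0 in all libraries, but only 5 were tested, and Ly6g had at most 1 count in any library. S100a8 swung widely, with 795, 159 and 24 counts in lecko libraries 1 to 3 and 859, 12 and 210 in controls 1 to 3. Of the 5 tested genes, 1 (Csf3r) was higher in every lecko library than in every control, against 7.37% of all genes. Lower without overlap were 0 of the 5, against 7.23% of all genes. Platelets also carry Selp, and 11 platelet genes, none of them at 0 in all libraries, summed to 60.3 to 66.0 CPM in lecko skin and 57.8 to 71.2 CPM in control skin. The defining platelet markers Gp9, Ppbp and Gp5 had at most 6 counts in any library.

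The inducers and signalling genes of adhesion molecule expression had a median log2 fold change of 0.24 over 15 tested genes, 10 of them positive and 4 higher at an unadjusted p under 0.05, against 4.89% of all genes. Irf1, an interferon-induced transcription factor, had 420, 419 and 435 counts in lecko libraries 1 to 3, against 350, 299 and 290 counts in controls 1 to 3. All lecko libraries were higher, with a log2 fold change of 0.42. Ccl2, a monocyte chemokine, had 55, 120 and 77 counts in lecko libraries 1 to 3, against 32, 32 and 49 counts in controls 1 to 3, with a log2 fold change of 1.13. Adjusted p-values were 0.379 for Irf1 and 0.470 for Ccl2 by edgeR's quasi-likelihood test. The NF-kappa-B subunit and inhibitor genes of this list, named after their values were seen, had log2 fold changes of either sign. These were 0.05 for Rela, 0.03 for Nfkb1, -0.07 for Nfkb2, -0.12 for Relb, -0.18 for Nfkbia and 0.34 for Tnfaip3. The highest value of the list was that of Il1b, 1.95, with 139, 86 and 19 counts in lecko libraries 1 to 3. Il1b had 19, 18 and 25 counts in controls 1 to 3, so the groups overlapped. The median of this list was 0.09 without lecko 1, 0.04 without lecko 2, 0.10 without control 3 and 0.05 with a strict filter on low counts.

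Genes for the later step, passage through the junction, had a median log2 fold change of -0.16 over 10 tested genes, 7 of them negative. Mcam, an endothelial and pericyte adhesion molecule, had 667, 712 and 622 counts in lecko libraries 1 to 3, against 856, 827 and 891 counts in controls 1 to 3. Mcam had a log2 fold change of -0.38 and Cdh5, the cadherin of endothelial junctions, -0.25, with adjusted p of 0.341 and 0.432 by edgeR's quasi-likelihood test. Among relatives of CD93 and endomucin, the sialomucin gene Podxl had -0.23 and Thbd, the C-type lectin thrombomodulin, 0.36. Both groups overlapped for Thbd, and lecko Podxl libraries were below all controls. The list of 6 genes from which Podxl and Thbd were taken also held Cd34, Clec14a, Cd248 and Mmrn2. Its median of 0.09 was 0.032 without control 1, 0.15 without control 2 and 0.21 with the Y-linked covariate.

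**Figure D5:**
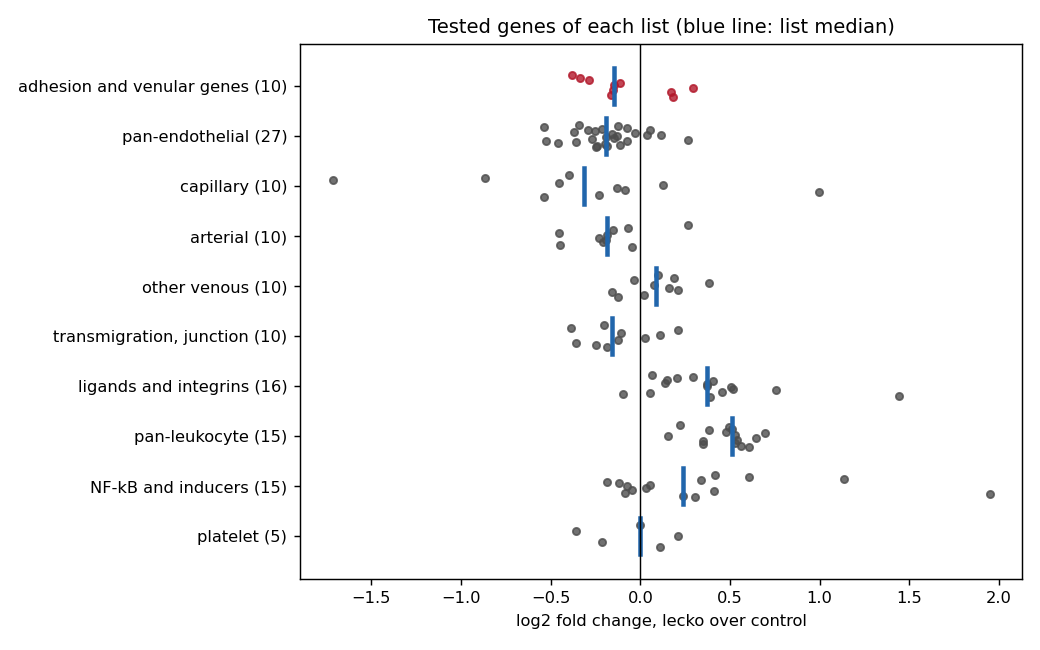
Log2 fold change (lecko over control) of every tested gene in the member group and 9 other lists, with the list median as a line and the number of tested genes in brackets. The pan-endothelial (-0.19), capillary (-0.31) and arterial (-0.19) medians lie below 0, and those of other venous genes (0.09) and of leukocyte ligands and integrins (0.37) above 0; some genes belong to more than 1 list.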

How the data were processed

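The authors deposited 1 table, whose values were taken as estimated counts per gene because 9.6 to 10.5% of them in each library are fractions. RSEM 1.3.1, HISAT2 2.2.1, Bowtie2 2.4.5 and the build GRCm38.p6 appear in the submitters' processing notes, and the sources used here state no roles, strand setting or annotation. Such estimates share reads out among overlapping or similar genes. Groups and replicate numbers come from the sample titles.

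Counts were rounded, filtered with filterByExpr (minimum count 10, minimum total 15; 3626 genes left out) and scaled by TMM. Groups were compared with edgeR 4.0.16 in R 4.3.3 (robust quasi-likelihood, Benjamini-Hochberg adjustment over 14856 genes, threshold 0.05). Log2 CPM used a prior count of 2. Within groups, chi-square divided by its degrees of freedom was 8.2 to 17.51 for pairs of libraries, and no pair was treated as a duplicate. Levels per kilobase and shared 50-base stretches use GENCODE M21 transcripts, and coordinates and promoters are RefSeq's. Scripts were tested on simulated data.

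The members and the lists were chosen with earlier results of these data known. The naming rule took the 10 members, Kdr and the Y-linked genes. Per list it took the genes past the threshold or, if fewer than 2, the 2 with the smallest p. For likeness of profile it took the 2 nearest genes of each member. Not every gene so taken is named here. Some genes were named outside the rule, among them Pi16, Il1b, S100a8, Ly6g, Gp9, Ppbp and Gp5. Alternatives were DESeq2 1.42.0, limma-voom (limma 3.58.1), other scalings and filters, a fit without robust estimation, a replicate block, a Y-linked covariate (threshold 10 CPM) and leaving out each library. A gene of the leukocyte ligand list is not reported here by name.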

Additional observations from a re-analysis of the deposited data

How the results depend on the processing

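Over 16 alternatives per gene, 0 of the 10 members passed the threshold (smallest adjusted p = 0.133, for Cd93 without control 2, by edgeR, and 0.133 by DESeq2), and 7 kept their direction in each. The log2 fold change of Icam2 was 0.075 with the Y-linked covariate. It was 0.068 with control 1 as the lone control, an alternative added after seeing the data. Both values compare the lecko libraries with control 1, so they are not separate checks. The lone-control fit assumes that control 1 varies like the other libraries. Leaving out single libraries gave -0.045 to 0.57 for Selp and -0.42 to 0.25 for Ackr1. The median of the members lay between -0.24 and -0.015 with single libraries left out (-0.015 without control 3), and the cause was not tested. The number of genes called was 3, 32 by DESeq2, and between 3 and 37 with single libraries left out: 37 without control 2, 8 without control 1 and 6 without lecko 2. With a replicate block 3 genes were called and the median of the members was -0.15. Deviations of same-numbered libraries correlated at 0.34, -0.07 and 0.04 for numbers 1 to 3, and 2 of 6 libraries correlated best with their own number, so the libraries share a number and are not treated as pairs. Set against lymphatic genes, Vwf differed by -0.11. Precision is limited by 3 libraries a group and, for Sele, by counts as low as 36.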

Other observations

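The 10 capillary genes, which include Kdr, had a median log2 fold change of -0.31, with 8 negative values, 6 of which had an unadjusted p under 0.05 (3.68% of all genes were lower at that level). Gpihbp1, which anchors lipoprotein lipase in capillaries, had -0.54. Kdr had -1.72. The 10 arterial genes had a median of -0.19, with the gap junction gene Gja4 and the kinase gene Bmx both at -0.45. The 10 other venous genes had a median of 0.09, 7 of them positive, with Bst1 at 0.38 and Csf2rb at 0.16. At an unadjusted p under 0.05 there were 0 of the 10, against 8.56% of all genes. The venous median was -0.0098 without lecko 2, with 5 positive and 5 negative, and 0.14 with the Y-linked covariate. No difference between lists was tested. Lymphatic genes had a median of -0.06 over 16 tested genes, with Ccl21a at -0.58 and Nrp2 at 0.24, and the median was 0.049 without control 2, 0.011 with the Y-linked covariate and between -0.021 and -0.014 without lecko 2, lecko 3 or control 1. Pericyte and smooth muscle genes had -0.12 over 10 (-0.069 without control 3 and -0.050 with the Y-linked covariate), with Acta2 at -0.24 and Rgs5 at -0.25.

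The erythroid genes Ank1 and Sptb, also expressed in muscle, had log2 fold changes of -0.32 and -0.28. The 8 tested erythroid genes had a median of 0.68, against 0.22 over all 11 by DESeq2 or without the filter on low counts. With the Y-linked covariate the median of the 8 was 0.96. Skeletal muscle genes had a median of -0.27 over 8 (-0.18 without lecko 3), with Ryr1 at -0.34 and Ckm at -0.35.

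Among tested genes of like abundance, the profile nearest to that of Cd93 over the 6 libraries was that of Mcam, at a root mean square distance of 0.04 log2 units, where the median of 5540 candidates was 0.23. Panx3 was the second nearest, at 0.05, and the nearest to Plvap, at 0.05. Nearest genes of other members included Foxd3 for Icam2 (0.04), Gnaz for Sele (0.09) and Kif2c for Ackr1 (0.15). The nearest of so many candidates is near by selection, and no distance was tested.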
